A study of Mus musculus with 6 samples.

Results

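The genes described here are 32 genes of B cells and antibody-secreting plasma cells, read in a T cell preparation. They were chosen by symbol (current name or older synonym), 27 as B cell genes and 5 (Tnfrsf17, Jchain, Mzb1, Sdc1 and Derl3) as plasma cell genes. Of the 32, 30 had a transcript cluster (the array's unit of probes for one transcript) that carries that gene's symbol and no other, out of 16825 genes tested. Pou2f2 and Ighd were read only on clusters that carry several symbols and are given apart.

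The samples are CD4+ CD25+ cells (surface markers that regulatory T cells carry) from spleens of untreated male C57BL/6 mice, taken by magnetic separation (MACS). The series title writes CD4-CD25+, which may be a hyphen or a minus sign, whereas the sample labels write CD4+, the reading used here. The 3 Keap1_KO arrays (replicates B, C and D) come from Keap1 -/- animals, made by crossing mice with a floxed Keap1 gene to VAVcre mice, whose Cre recombinase acts across blood-forming cells, so the deletion is not limited to T cells and B cells are a target as well. The 3 WT arrays (replicates A, D and F) come from Keap1 +/+ animals. Age reads as 10 to 12 months in one label and as 6 to 10 weeks in another. Nothing in the labels says whether each array is a separate animal, so p-values here reflect spread among arrays only, which may be technical.

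B cells recognise antigen through a membrane immunoglobulin paired with the signalling chains CD79A and CD79B, and their identity depends on transcription factors such as PAX5 and EBF1. Survival of mature B cells depends on BAFF, a ligand read through the receptors BAFF-R, TACI and BCMA. When a B cell becomes a plasma cell it shuts down much of this programme, PAX5 included, and turns to immunoglobulin secretion, with the J chain, MZB1 and the machinery of the endoplasmic reticulum. The spleen is rich in B cells.

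All values are deposited log2 values, and differences are Keap1_KO minus WT. The targeted gene Keap1 read 4.87, 4.89 and 4.70 on Keap1_KO B, C and D, against 5.30, 5.41 and 5.77 for WT A, D and F, dim values whose groups do not overlap. As Keap1 missed the filter (at or above the array median on at least 3 of 6 arrays), its limma adjusted p of 0.563 is from the fit without a filter, over 30024 genes. Whether its probes lie in the deleted part is not known here. The KEAP1-regulated quinone reductase gene Nqo1 read 8.50, 7.55 and 9.14 on the Keap1_KO arrays, against 4.68, 4.69 and 5.03 on the WT arrays. All 12 T cell marker genes tested lay above the array median on every array, with mean levels of 12.72 to 13.68 in Keap1_KO and 12.43 to 12.87 in WT. The CD25 gene Il2ra averaged 13.88 ± 0.30 in Keap1_KO and 13.93 ± 0.22 in WT (SD, n = 3 each, as for all means below). Each array's median over its clusters was between 5.16 and 5.43, and values near these are dim.

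Most B cell and plasma cell genes had somewhat higher means in Keap1_KO, led by Cd79b, Ly6d and Fcrla, but no single gene passed the test against the spread between arrays. None of the 30 passed limma's adjusted threshold of 0.05 (adjusted p from 0.476 to 0.996), where 0% of all genes tested did. At an unadjusted p under 0.05, 1 of the 30 (Fcrla) stood out, against 10.3% of all genes tested, or 8.38% counting higher genes alone. The means were higher in Keap1_KO for 26 of the 30 (86.7%), against 56.5% of all genes tested, with a median difference of 0.42, against 0.06 over all genes. Without WT F this was 18 of the 30, against 54.6% of all genes, and without Keap1_KO D it was 20, against 55.4%. In 26 of the 30 the difference was smaller than the larger of the 2 group SDs, the others being Cd79b, Ly6d, Fcrla and Cd72. Groups did not overlap for 2 of the 30, Cd72 and Tnfrsf13b, both higher in Keap1_KO, where 9.11% of all genes tested were separated in that direction and 4.96% in the lower one, a share of members that is not above the background.

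**Figure D1:**
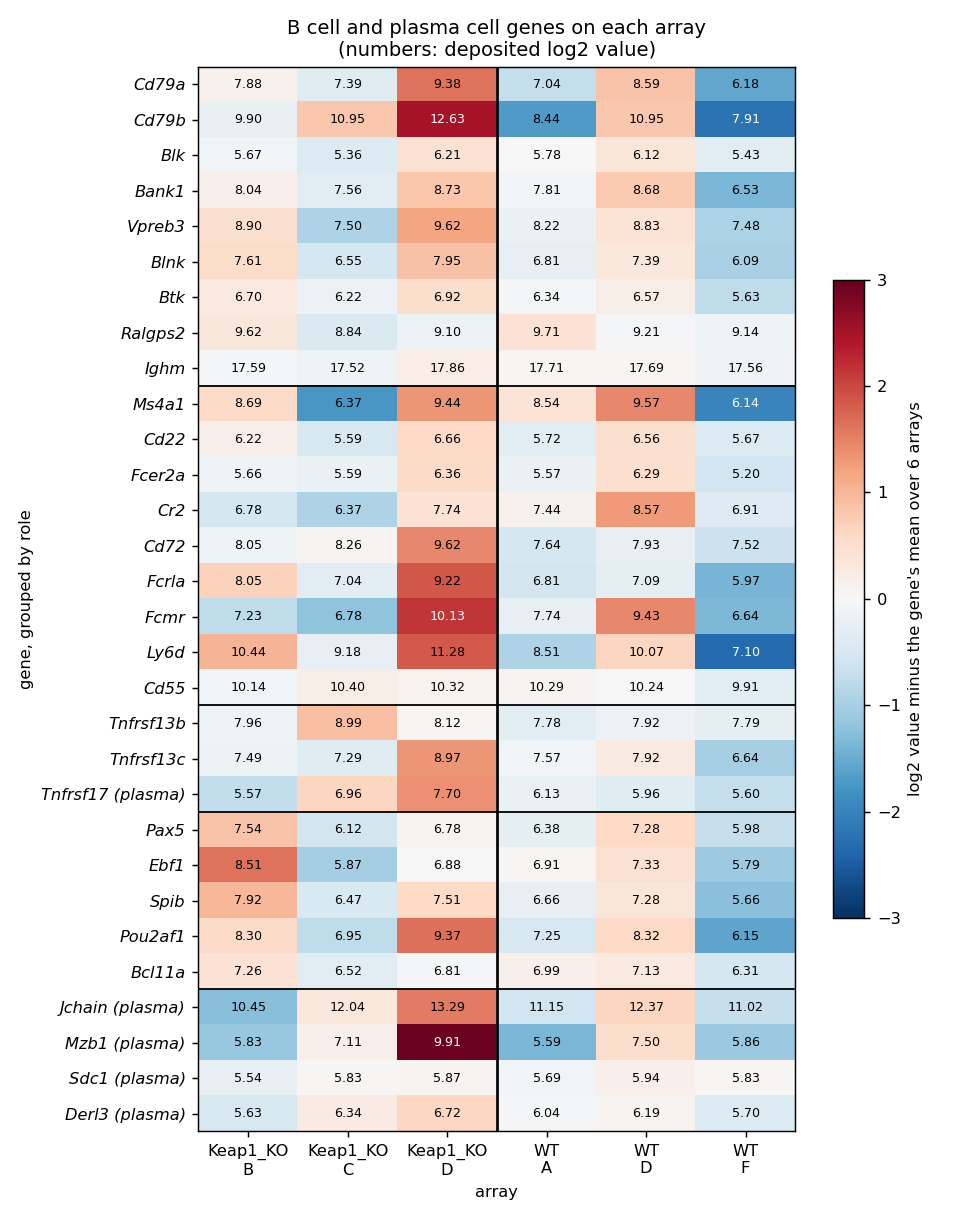
Heat map of the 30 genes with a cluster of their own, in rows grouped by role, on the 3 Keap1_KO and 3 WT arrays in columns. Numbers are deposited log2 values and colour is the value minus that gene's mean over 6 arrays; Keap1_KO D is the highest array for 20 of the 30 and WT F the lowest for 19.

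The genes varied widely among arrays of one genotype. The median range over the 6 arrays was 2.14 log2 units for the 30 genes, against 0.90 over all genes tested, and 17 of the 30 (56.7%) spanned more than 2 units, against 12.3% of all genes. Keap1_KO D was the highest array for 20 of the 30, against 26.2% of all genes tested. WT F was the lowest array for 19 of the 30, all of them B cell genes, against 34.4% of all genes tested. In bulk RNA a smaller number of B cells and less RNA per B cell cannot be told apart.

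Among the genes of the antigen receptor and its signalling, the largest difference was in Cd79b. Cd79b, one of the signalling chains of the B cell receptor, read 9.90, 10.95 and 12.63 on Keap1_KO B, C and D, against 8.44, 10.95 and 7.91 on WT A, D and F. Keap1_KO C and WT D both read 10.95, so the groups overlap, and the difference of 2.06 (SE 0.98, 4.17-fold) had limma adjusted p = 0.479 and exact permutation p = 0.200, where 0.1 is the smallest that 3 arrays against 3 allow. Its partner chain Cd79a read 7.88, 7.39 and 9.38 in Keap1_KO, against 7.04, 8.59 and 6.18 in WT, a difference of 0.95 (SE 0.75). For both chains the highest array was Keap1_KO D and the lowest WT F.

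The kinase and adaptor genes downstream of the receptor, Blnk, Btk, Bank1 and Blk, were also highest on Keap1_KO D, over a narrower range, as was Vpreb3. The adaptor gene Blnk averaged 7.37 ± 0.73 in Keap1_KO and 6.76 ± 0.65 in WT. The kinase gene Btk averaged 6.61 ± 0.36 in Keap1_KO and 6.18 ± 0.49 in WT. Bank1, a scaffold of receptor signalling, differed by 0.44 (SE 0.58). Vpreb3, which binds newly made immunoglobulin chains, read 8.90, 7.50 and 9.62 in Keap1_KO, against 8.22, 8.83 and 7.48 in WT. The Src family kinase gene Blk was dim on all arrays, between 5.36 and 6.21. Ralgps2, a Ral exchange factor gene, ranged over only 0.87 units, and its order was different, with WT A highest (9.71) and Keap1_KO C lowest (8.84).

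On the cluster that carries its symbol alone, Ighm, the heavy chain constant gene of IgM, did not follow its receptor partners. This cluster read 17.59, 17.52 and 17.86 on Keap1_KO B, C and D, against 17.71, 17.69 and 17.56 on WT A, D and F. The 6 values spanned 0.34 units, whereas Cd79b spanned 4.72 and Cd79a 3.20 on the same arrays. The groups overlap fully, and the means differ by 0.00 (SE 0.17, limma adjusted p = 0.996). How the deposited scale reaches values this high is not stated in the sources used here, and whether differences can be read at this level was not tested. Clusters that carry Ighm with another immunoglobulin symbol spanned 5.80 units (with Igkv8-27), 2.83 (Ighv2-6), 1.23 (Ighg3) and 0.62 (Ighv2-7). The cluster that Ighd, the IgD constant gene, shares with Ighg2c, Igha, joining segments and a variable segment read 10.89, 11.13 and 12.18 in Keap1_KO, against 11.25, 11.34 and 11.20 in WT.

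Among the coreceptors and surface proteins, Ly6d and Fcrla had the largest differences and Cr2 the only one in the lower direction. Fcrla, an Fc receptor-like protein kept inside B cells, read 8.05, 7.04 and 9.22 in Keap1_KO, against 6.81, 7.09 and 5.97 in WT. Only Keap1_KO C (7.04) lay below a WT array (WT D, 7.09), and the difference of 1.48 (SE 0.58, 2.79-fold) had limma adjusted p = 0.476 and unadjusted p = 0.0415. Ly6d, a surface marker of early B cell commitment, read 10.44, 9.18 and 11.28 in Keap1_KO, against 8.51, 10.07 and 7.10 in WT, a difference of 1.74 (SE 0.84, limma adjusted p = 0.479). WT D lay above Keap1_KO C here too. Cd72, an inhibitory coreceptor, read 8.05, 8.26 and 9.62 in Keap1_KO, against 7.64, 7.93 and 7.52 in WT. Each Keap1_KO array was above each WT array, by 0.95 on average (SE 0.43, 1.93-fold, limma adjusted p = 0.477), and the gap between Keap1_KO B and WT D was small beside the range of 2.11.

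Cr2, the complement receptor CD21 of mature and marginal zone B cells, had a lower mean in Keap1_KO. It read 6.78, 6.37 and 7.74 on Keap1_KO B, C and D, against 7.44, 8.57 and 6.91 on WT A, D and F, a difference of -0.68 (SE 0.52, limma adjusted p = 0.576). The groups overlapped through Keap1_KO D, and without that array Keap1_KO B and C lay below all WT values on this cluster. A second, dimmer Cr2 cluster differed by -0.40, with WT D highest on both, and its groups overlap with or without Keap1_KO D. Genes of the mature B cell surface that differed little were Ms4a1 (CD20), with 8.69, 6.37 and 9.44 in Keap1_KO, against 8.54, 9.57 and 6.14 in WT, and Fcmr, the IgM Fc receptor gene, with 7.23, 6.78 and 10.13 in Keap1_KO, against 7.74, 9.43 and 6.64 in WT. Over the 6 arrays Ms4a1 spanned 3.44 and Fcmr 3.49, while the group means differed by 0.08 and 0.11. The low affinity IgE receptor gene Fcer2a (CD23) averaged 5.87 ± 0.43 in Keap1_KO and 5.69 ± 0.55 in WT, and the inhibitory lectin gene Cd22 averaged 6.16 ± 0.54 in Keap1_KO and 5.98 ± 0.50 in WT. Cd55, a complement regulator that many blood cells carry, spanned 0.49 units, with 10.29 ± 0.13 in Keap1_KO and 10.15 ± 0.21 in WT.

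**Figure D2:**
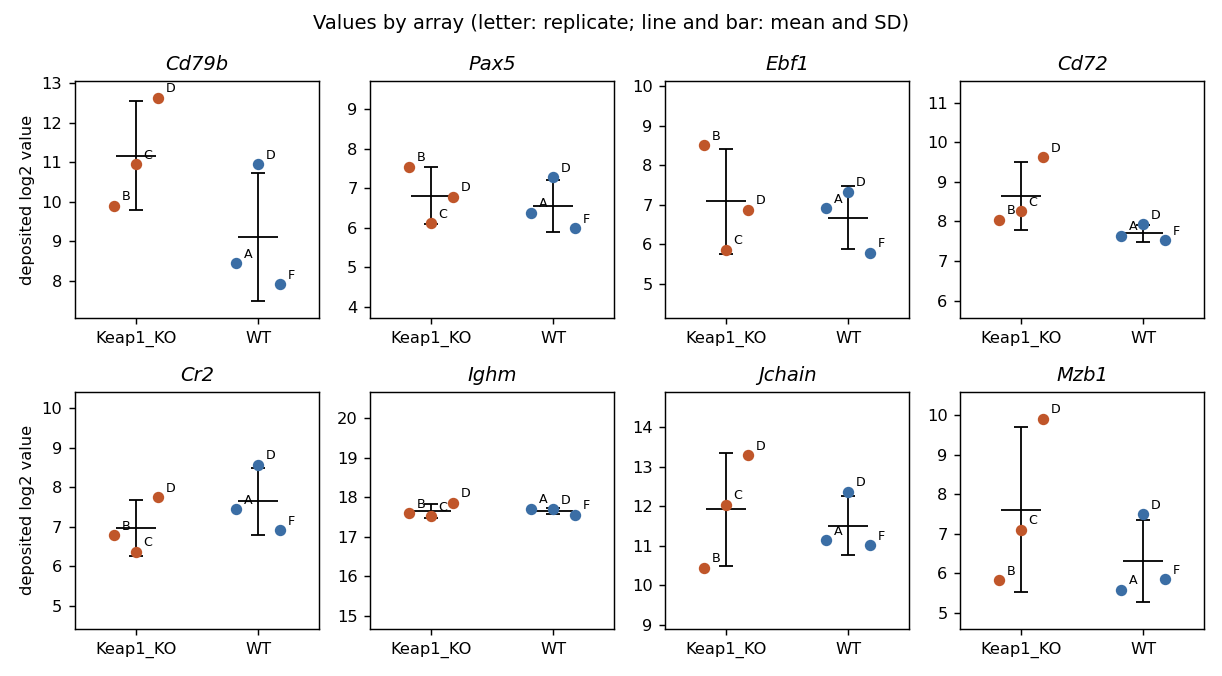
Deposited log2 values of 8 genes on the Keap1_KO (left) and WT (right) arrays, each panel spanning the same number of log2 units. Points are arrays with their replicate letter, the horizontal line is the group mean and the bar its SD (n = 3); the groups separate for Cd72 and overlap for the other 7, and Ighm spans 0.34 units.

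The receptors for BAFF and its relative APRIL each peaked on a Keap1_KO array, Tnfrsf13b on C, and Tnfrsf13c and Tnfrsf17 on D. Tnfrsf13b (TACI) read 7.96, 8.99 and 8.12 on Keap1_KO B, C and D, against 7.78, 7.92 and 7.79 on WT A, D and F. All Keap1_KO values were above all WT values, by 0.53 on average (SE 0.29, 1.44-fold, limma adjusted p = 0.498). Keap1_KO B (7.96) and WT D (7.92) nearly met, and without Keap1_KO C the difference was 0.21. The highest value was on Keap1_KO C, the array on which most B cell genes were lowest or next to lowest. Tnfrsf13c (BAFF-R), the main survival receptor of mature B cells, read 7.49, 7.29 and 8.97 in Keap1_KO, against 7.57, 7.92 and 6.64 in WT, with the groups overlapping. Tnfrsf17 (BCMA), which plasma cells carry, read 5.57, 6.96 and 7.70 in Keap1_KO, against 6.13, 5.96 and 5.60 in WT, a difference of 0.85 (SE 0.53) that came from C and D alone, since Keap1_KO B was the lowest of the 6.

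Promoters are shown for the 2 genes whose groups separated and for 2 that hold an octamer core, the element read by the factors encoded by Pou2f2 and Pou2af1. They run from 250 bases before to 50 after each start site, come from RefSeq (GRCm38.p6) and are written 5′ to 3′ as that table gives them. Of the 32 genes, 25 had a promoter there. Capitals mark the antioxidant response element TGACNNNGC, the pattern bound by NRF2, the factor that KEAP1 restrains, in Cd72 (chr4:43454577-43454876, minus strand) and Tnfrsf13b (chr11:61126505-61126804, plus strand), and the octamer core TTTGCAT in Vpreb3 (chr10:75948050-75948349, plus strand) and Blnk (chr19:40994172-40994471, minus strand).
Cd72: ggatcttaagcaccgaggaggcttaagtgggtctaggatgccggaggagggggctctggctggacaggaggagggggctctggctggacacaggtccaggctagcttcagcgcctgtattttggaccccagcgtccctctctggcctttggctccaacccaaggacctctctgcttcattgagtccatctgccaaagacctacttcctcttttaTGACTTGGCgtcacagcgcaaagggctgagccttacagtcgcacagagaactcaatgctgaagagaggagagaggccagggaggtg
Tnfrsf13b: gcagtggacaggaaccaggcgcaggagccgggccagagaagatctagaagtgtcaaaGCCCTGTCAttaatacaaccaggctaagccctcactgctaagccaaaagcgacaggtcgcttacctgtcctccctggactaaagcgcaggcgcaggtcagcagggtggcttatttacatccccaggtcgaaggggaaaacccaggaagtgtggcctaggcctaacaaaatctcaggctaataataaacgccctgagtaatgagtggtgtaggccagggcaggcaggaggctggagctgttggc
Vpreb3: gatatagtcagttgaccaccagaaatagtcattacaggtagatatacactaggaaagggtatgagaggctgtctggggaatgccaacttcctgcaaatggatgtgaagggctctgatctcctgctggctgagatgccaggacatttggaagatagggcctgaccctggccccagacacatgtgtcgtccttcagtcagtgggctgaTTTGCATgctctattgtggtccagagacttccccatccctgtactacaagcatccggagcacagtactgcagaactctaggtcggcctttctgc
Blnk: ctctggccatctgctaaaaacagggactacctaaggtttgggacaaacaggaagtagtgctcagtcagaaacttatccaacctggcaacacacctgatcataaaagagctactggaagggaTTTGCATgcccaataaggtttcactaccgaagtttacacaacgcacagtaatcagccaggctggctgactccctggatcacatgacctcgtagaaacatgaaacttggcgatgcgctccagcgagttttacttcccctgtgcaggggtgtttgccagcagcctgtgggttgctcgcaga

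Blnk also holds a TGACNNNGC match, left in lower case. On either strand, TGACNNNGC was found in 5 of the 25 genes (Cd72, Pou2af1, Blnk, Tnfrsf13b and Jchain), against 14.0% of all 27025 genes in the table. TTTGCAT was found in 2 of the 25 (Vpreb3 and Blnk), against 5.24% of all genes, and CCCNNGGG, a core of the EBF1 pattern, in 5 of the 25 (Cd22, Bank1, Spib, Cd55 and Sdc1), against 15.4%. Matches of different patterns did not overlap in any of these promoters. In Cd72 the match starts at position -36 and in Tnfrsf13b at -193 from the start site, and the octamer core starts at -44 in Vpreb3 and at -129 in Blnk. Blnk and Vpreb3 were highest on Keap1_KO D and lowest on WT F, as was Cd79a, which is not among the genes with a match. Among the genes with TGACNNNGC, the groups separated for Cd72 and Tnfrsf13b and overlapped for Pou2af1, Blnk and Jchain. Whether a match goes with any difference was not tested. A match describes the letters in this window and says nothing of binding in these cells.

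Most B cell transcription factors were highest on Keap1_KO B, not on Keap1_KO D. Keap1_KO B was the highest array for 4 of the 5 tested (Pax5, Ebf1, Spib and Bcl11a), whereas it was the highest for 8.45% of all genes tested, and WT F was the lowest for all 5. Ebf1, which starts the B cell programme, read 8.51, 5.87 and 6.88 in Keap1_KO, against 6.91, 7.33 and 5.79 in WT. Keap1_KO B lay above all WT arrays and Keap1_KO C near the bottom of the WT range. Pax5, which holds B cell identity, read 7.54, 6.12 and 6.78 in Keap1_KO, against 6.38, 7.28 and 5.98 in WT. The groups overlapped for both, with differences of 0.41 (SE 0.72) for Ebf1 and 0.27 (SE 0.47) for Pax5. Spib, an ETS factor of B cells and plasmacytoid dendritic cells, differed by 0.77 (SE 0.53), and Bcl11a, a zinc finger factor needed for early lymphoid development, by 0.05 (SE 0.30). Pou2af1, the octamer coactivator that B cells and plasma cells share, was highest on Keap1_KO D instead, with 8.30, 6.95 and 9.37 in Keap1_KO, against 7.25, 8.32 and 6.15 in WT. The cluster that Pou2f2, the lymphoid octamer factor gene, shares with a microRNA read 7.31, 6.61 and 6.34 in Keap1_KO, against 7.15, 6.31 and 7.28 in WT, with no separation of the groups.

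Keap1_KO B, high in most B cell transcription factors, was low in the plasma cell genes. It was the lowest of the 6 for 4 of the 5 plasma cell genes, where it was the lowest for 8.48% of all genes tested. Only Jchain was bright among these 4. The others were near the array medians on Keap1_KO B, with small margins to the next lowest array. Tnfrsf17 read 5.57 against 5.60 on WT F, Derl3 5.63 against 5.70 on WT F, and Sdc1 5.54 against 5.69 on WT A. Jchain, which links IgM and IgA into polymers, read 10.45, 12.04 and 13.29 on Keap1_KO B, C and D, against 11.15, 12.37 and 11.02 on WT A, D and F. The groups overlapped, with a difference of 0.41 (SE 0.75, limma adjusted p = 0.807). Mzb1, an endoplasmic reticulum protein of antibody secretion, read 5.83, 7.11 and 9.91 in Keap1_KO, against 5.59, 7.50 and 5.86 in WT, a difference of 1.30 (SE 1.07), and only Keap1_KO D lay above WT D. Derl3, of the pathway that exports misfolded proteins from the endoplasmic reticulum, averaged 6.23 ± 0.56 in Keap1_KO and 5.98 ± 0.25 in WT. Sdc1, whose product CD138 marks plasma cells, stayed between 5.54 and 5.94 on all arrays and varied by 0.40.

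Set side by side, the B cell and the plasma cell genes had median differences of 0.43 and 0.41 and unlike profiles across arrays. With 5 plasma cell genes, the second median is the value of Jchain. Summarised as the mean deviation of each gene from its own mean over 6 arrays, the 25 B cell genes lay at 0.26, -0.40 and 0.88 on Keap1_KO B, C and D, against -0.24, 0.46 and -0.97 for WT A, D and F. The 5 plasma cell genes lay at -0.77, 0.28 and 1.32 on the Keap1_KO arrays, against -0.46, 0.21 and -0.58 on the WT arrays. The B cell value minus the plasma cell value was thus 1.04 on Keap1_KO B, -0.67 on C and -0.44 on D, a mean of -0.02 ± 0.93, against 0.23, 0.24 and -0.39 on WT A, D and F, a mean of 0.02 ± 0.36 (SD, n = 3 each). Between Keap1_KO B and Keap1_KO C, 21 of the 25 B cell genes were higher on B (median 0.49) and all 5 plasma cell genes were lower on B (median -1.28). Between WT D and WT F, all 25 B cell genes (median 1.29) and all 5 plasma cell genes (median 0.49) were higher on WT D.

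The median difference between genotypes rested on single arrays. For the B cell genes it was 0.43, and it was 0.02 without WT F, 0.13 without Keap1_KO D, 0.74 without Keap1_KO C and 0.81 without WT D. For the plasma cell genes it was 0.41, and it was 0.01 without Keap1_KO D, 0.17 without WT F, 0.84 without WT D and 1.15 without Keap1_KO B. With 5 genes this median is the value of a single gene. That gene was Derl3 without Keap1_KO D and Jchain in the other fits given here.

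**Figure D3:**
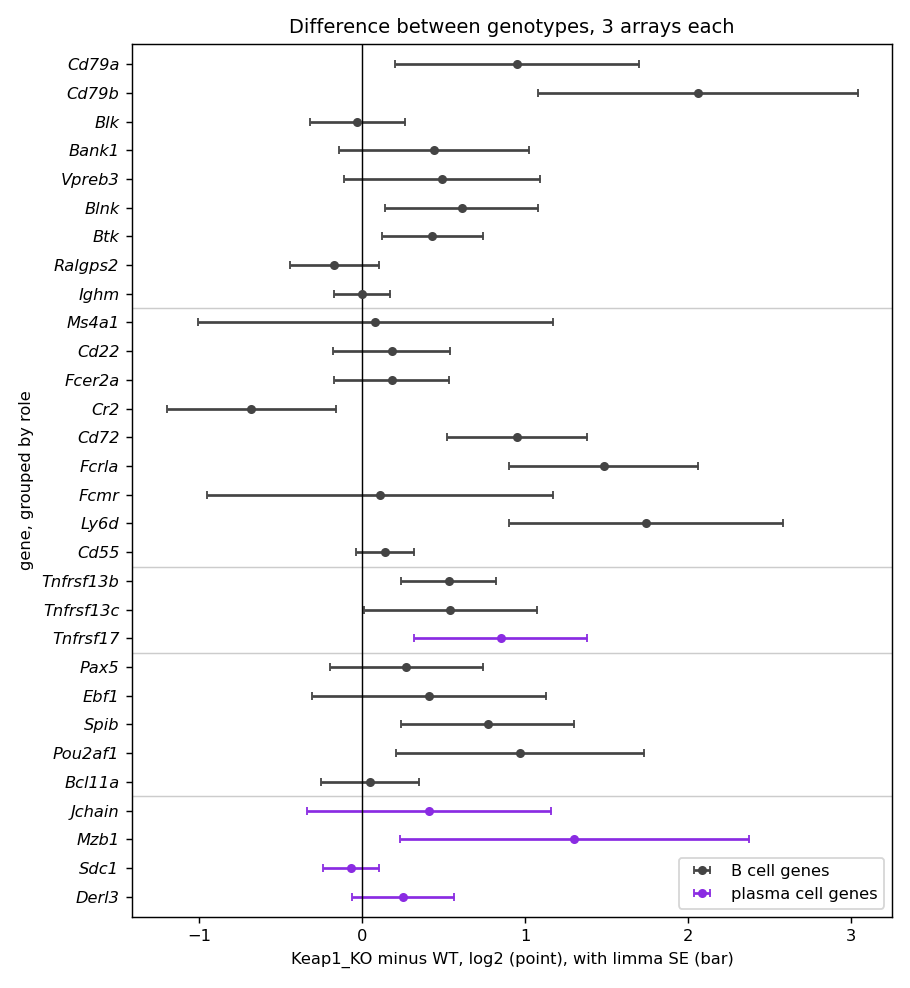
Difference between Keap1_KO and WT (log2, x axis) for the 30 genes, grouped by role, with limma's SE as the bar; black points are B cell genes and purple points plasma cell genes. Most points lie right of 0 with bars that are wide beside the difference, from -0.68 for Cr2 to 2.06 for Cd79b.

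Further genes of both cell types, from separate lists, also had mostly higher means in Keap1_KO, a lean not limited to the B lineage. Higher means were also found for 12 of 12 T cell genes (median 0.84) and 12 of 13 neutrophil genes (1.85). The same held for 8 of 8 macrophage and monocyte genes (0.31) and 7 of 8 NK cell genes (0.35). Among dendritic cell genes it was 3 of 6 (-0.05), and among erythroid genes 2 of 4 (-0.06). Of 20 further B cell genes tested, 18 had higher means (median 0.51), against 56.5% of all genes tested, and none passed limma's adjusted threshold. Groups separated for 3 of the 20, all higher in Keap1_KO, where 9.11% of all genes did. Dapp1, an adaptor of the receptor pathway, read 10.52, 10.71 and 11.03 in Keap1_KO, against 10.06, 9.91 and 9.94 in WT (difference 0.78, SE 0.19, limma adjusted p = 0.476). Cd37, a tetraspanin gene of lymphocytes, was also separated and differed by 1.32, as was Swap70, an actin-binding signalling protein gene, with 1.09. Cd83, an activation marker gene, differed by 1.07 and Ly86, a partner of the Toll-like protein RP105, by 0.81, with groups that overlapped. Of 15 further plasma cell genes, 13 had higher means (median 0.50), 1 was separated in the higher direction (Creld2) and 1 in the lower (Trp53inp1). The differences were 1.33 for the endoplasmic reticulum stress gene Creld2, 1.03 for Txndc5, a disulfide isomerase gene, 0.91 for Xbp1, the transcription factor of the secretory programme, and 0.70 for Ssr4, of the protein translocation machinery. Trp53inp1, a p53-induced gene, read 11.90, 11.44 and 11.57 in Keap1_KO, against 12.00, 12.33 and 12.32 in WT (difference -0.58, SE 0.20, limma adjusted p = 0.476). The 15 further plasma cell genes had mean levels of 9.10 to 9.98 in Keap1_KO and 8.70 to 9.47 in WT. The 5 plasma cell genes above lay lower, at 6.60 to 8.70 in Keap1_KO and 6.80 to 7.59 in WT. From which cells the further genes of either list are read was not tested. The contrast between B cell and plasma cell genes across arrays was only partly shared by these lists. On Keap1_KO B the further B cell genes lay at 0.05 and the further plasma cell genes at -0.20, the same order as above with a smaller gap, but on Keap1_KO D they lay at 0.71 and 0.68. The further plasma cell genes were lowest on WT F for 11 of 15 and on Keap1_KO B for 2, unlike the 5 plasma cell genes above.

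The class-switched heavy chain genes Ighg2b and Ighg1 passed the filter with a cluster of their own, and both had lower means in Keap1_KO. Ighe was below the filter and is given apart. Ighg2b, the constant gene of IgG2b, read 8.64, 6.77 and 9.93 on Keap1_KO B, C and D, against 11.69, 9.91 and 10.62 on WT A, D and F. Keap1_KO D and WT D met within 0.02, so the groups overlap, and the difference was -2.29 (SE 0.84, 4.90-fold lower, limma adjusted p = 0.476). Ighg1 averaged 5.88 ± 0.35 in Keap1_KO and 6.20 ± 0.30 in WT. Heavy chain constant genes resemble each other, and whether the probes separate them was not tested.

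Markers of other cells varied over the same arrays. The 8 NK cell genes tested, of 9 listed, were highest on Keap1_KO D (mean deviation 1.40) and WT D (0.82) and lowest on WT F (-1.43). The 13 neutrophil genes, of 14 listed, lay at -1.13, 0.64 and 2.77 on Keap1_KO B, C and D, against -1.26, -0.07 and -0.97 on the WT arrays. All 13 were highest on Keap1_KO D. The 8 macrophage and monocyte genes, of 9 listed, lay at -0.17, 0.13 and 0.97 on the Keap1_KO arrays, against -0.50, 0.34 and -0.77 on the WT arrays. Of these 8, 6 were at or above the array median on all 6 arrays. Lyz2 spanned 6.92 units and Ly6c2 lay between 12.37 and 15.31, while Adgre1 and Csf1r stayed dim, between 5.08 and 5.81. The T cell genes were highest on Keap1_KO C (0.71) and D (0.64) and all 12 had higher means in Keap1_KO. The 6 plasmacytoid dendritic cell genes tested, of 8 listed, are relevant because Spib, Bcl11a and Ly6d are read in those cells too. The mean deviation of the 6 lay between -0.09 and 0.21, highest on Keap1_KO B. This mean joins genes that moved in opposite directions, 4 with higher and 2 with lower means in Keap1_KO. Groups separated for 2 of the 6, Cox6a2 (difference 0.77) and Pacsin1 (0.40), against 9.11% of all genes in that direction, while Ccr9 differed by -0.62. The mean levels ranged from 7.96 to 9.71 in Keap1_KO and 6.88 to 9.12 in WT for NK cell genes, and from 7.72 to 11.62 in Keap1_KO and 7.59 to 8.78 in WT for neutrophil genes. The part of these cells in the B cell and plasma cell values was not tested.

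**Figure D4:**
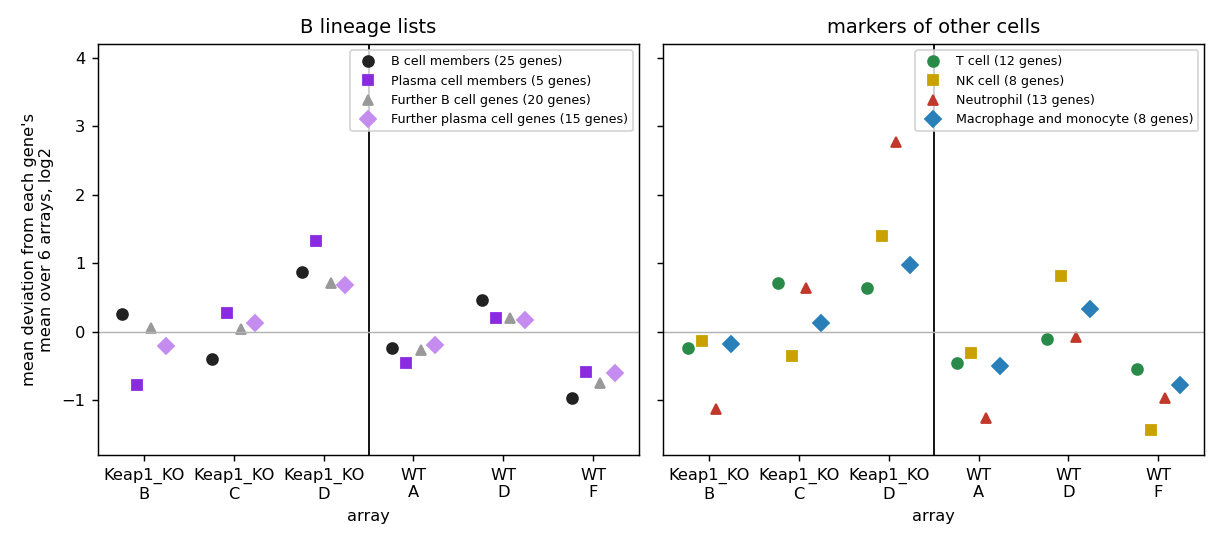
Mean deviation of each gene list from its genes' own means over 6 arrays (y axis, log2), for the 3 Keap1_KO and 3 WT arrays; left, B lineage lists, and right, markers of other cells. On Keap1_KO B the B cell genes lie at 0.26 and the plasma cell genes at -0.77, while on Keap1_KO D all 8 lists drawn lie above 0.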

How the data were processed

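The data are 6 expression arrays of 1 sample each, 3 Keap1_KO and 3 WT, grouped by sample title. The values are the log2 expression values that the authors deposited, 1 per transcript cluster and array. The submitters' processing notes name RMA, Affymetrix Expression Console and the Transcriptome Analysis Console, with no versions. RNA (40 ng) was amplified before hybridisation, per the labels' protocols. Values ran from 1.88 to 19.93, and 1268 clusters exceeded 16. How the scale reaches them is unstated, and fold changes are on this deposited scale. The build is not stated in the sources used here. Cluster names come from the annotation that matches the deposited identifiers, of another Affymetrix mouse array than the design text names. Precision is limited by having 3 arrays a group.

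Of 65528 clusters, 30354 carried 1 symbol in the annotation table, 2118 several and 33056 none; 824 symbols were updated by Entrez identifier. Clusters at or above their array's median on at least 3 of 6 arrays were tested, the brightest cluster standing for a gene (16825 genes). All 30 genes with their own cluster passed, 29 of them on all 6 arrays. The genes were compared with limma 3.58.1 in R 4.3.3 (lmFit, eBayes, two-sided) with Benjamini-Hochberg adjustment over all 16825 genes, beside an exact two-sided permutation test; the fit was tested on simulated data. No set test was run. The 32 genes and the lists were chosen with earlier results of these data known. All 32 genes are named, and up to 4 of each other list with the largest difference, plus defining markers such as Adgre1 and Csf1r to give their level. Dapp1 and Trp53inp1 are named outside this rule, as genes whose groups separated. Ighe, Igkv8-27, Ighv2-6, Dapp1, Trp53inp1, the CCCNNGGG pattern and the promoters shown were chosen after values were seen. The alternatives were other filters and scalings, averaged clusters, array weights, an intensity trend and leaving out each array.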

Additional observations from a re-analysis of the deposited data

How the results depend on the processing

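No paired analysis was possible because the groups share only 1 replicate letter, D. With all 13 alternatives, no B cell or plasma cell gene passed the adjusted threshold (lowest limma adjusted p 0.0602), and 17 of 30 kept the sign of their difference in every one. Over all genes, limma called 0 (1733 at an unadjusted p under 0.05), 1880 with array weights, 1 with an intensity trend, and from 0 to 569 when 1 array was left out, the highest without Keap1_KO B; the cause was not tested. The number of the 30 genes whose groups do not overlap was 2 (6.67%, against 14.1% of all genes in either direction), 1 with repeated quantile normalization (Fcrla; 11.4% of all genes), 3 with each array centred on its median (Cd72, Fcrla and Tnfrsf13b; 14.6% of all genes), and from 2 to 8 when 1 array was left out. It was 8 (26.7%) without Keap1_KO C, against 18.3% of all genes, 7 (23.3%) without Keap1_KO B, against 49.4%, 7 (23.3%) without WT D, against 33.3%, and 3 (10.0%) without Keap1_KO D, against 17.4%. The B cell minus plasma cell difference ranged from -0.58 without Keap1_KO B to 0.28 without Keap1_KO C.

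Genes with small differences changed sign. With array weights the differences were -0.48 for Ms4a1, -0.26 for Ebf1, -0.21 for Bcl11a, -0.015 for Ighm and 0.073 for Sdc1. With repeated quantile normalization they were 0.063 for Blk and 0.050 for Sdc1, and with each array centred on its median 0.084 for Blk and 0.039 for Sdc1. These scalings moved the median of all genes from 0.06 to 0.14 and 0.17. When 1 array was left out, the difference ranged from -0.89 to 0.98 for Ms4a1, from -0.076 to 0.46 for Cd22, from -0.097 to 0.63 for Pax5, from -0.30 to 1.02 for Ebf1, from -0.26 to 0.17 for Blk, from -0.064 to 0.48 for Fcer2a, from -0.13 to 0.94 for Bank1, from -0.93 to 0.85 for Fcmr, from -0.38 to 0.013 for Ralgps2, from -0.20 to 0.23 for Bcl11a, from -0.099 to 0.072 for Ighm, from -0.27 to 1.15 for Jchain and from -0.14 to 0.029 for Sdc1. The number of the 30 genes with a higher mean in Keap1_KO, counted after seeing the data, ranged from 18 to 28 over all alternatives. Where an array was left out, the groups held 2 and 3 arrays. Genes near the array median, such as Blk, Fcer2a, Cd22 and Sdc1, have little signal over background.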

Other observations

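A few immunoglobulin clusters varied widely among arrays, Ighe through Keap1_KO C alone. Ighe, the constant gene of IgE, lay below the array median on 5 arrays and read 4.54, 8.12 and 4.51 on Keap1_KO B, C and D, against 4.75, 4.64 and 5.14 on WT A, D and F. The cluster annotated to Ighm together with the kappa light chain variable segment Igkv8-27 read 8.44, 14.24 and 13.15 on the Keap1_KO arrays, against 8.60, 11.05 and 8.95 on the WT arrays, a range of 5.80 units with Keap1_KO C and D highest. On Keap1_KO C, Ighg2b was at its lowest (6.77), and Pax5 (6.12) and Ms4a1 (6.37) were near the bottom of their ranges. Another cluster shared by Ighm and the variable segment Ighv2-6 was highest on Keap1_KO D (11.95) and lowest on Keap1_KO B (9.12). These values were picked after they were seen.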
